A study of Sus scrofa with 8 samples.

Results

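Most of the genes described here encode proteins of the cytosolic ribosome. They were chosen by symbol: protein-coding genes of the pig whose symbol starts with RPL or RPS followed by a number, without the RPS6K kinases. The rule found 81 genes among 19484 protein-coding genes on chromosomes 1 to 18 and X. Of these, 49 have RPL symbols, for the large subunit, and 32 have RPS symbols, for the small subunit. Paralogs and RPS19BP1, which encodes a binding partner of RPS19, are among them. RPL18 is listed at 2 places and both were kept. Chromatin accessibility was measured by ATAC-seq, in which a transposase cuts and tags accessible DNA. The cells were muscle satellite cells of the pig, stem cells from which new muscle fibres form. The 8 libraries fall into 4 groups of 2: WT at 0 h (proliferation), CBP at 0 h, WT at 60 h (differentiation) and CBP at 60 h. The protocol attached to every sample names SGC-CBP30, a bromodomain inhibitor directed at CBP, at 5 uM/ml. It gives 48 h of treatment for proliferation (the 0 h libraries) and 60 h for differentiation. The labels do not say which groups received the inhibitor. No label gives an age, a genotype change or separate animals or cultures for replicates, so an adjusted p reflects library-to-library spread alone, possibly of technical origin. The labels also name a cell line, C3H.

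Ribosomes are assembled from ribosomal RNA and one copy of nearly every ribosomal protein, so these genes are transcribed in all growing cells. They are short genes with strong promoters, and many carry a pyrimidine-rich start through which growth signals control the translation of their messages. Satellite cells make many ribosomes while they divide, and leave the cell cycle when they fuse into muscle fibres. In ATAC-seq the promoters of such genes are usually open in every cell type, which makes them a natural reference for stable open chromatin.

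The lists held 82696 to 135528 peaks each. Relative depth was 1.43 to 2.08 in the 0 h libraries and 1 to 1.21 in the 60 h libraries, in units of the shallowest library, so depth and time cannot be told apart. Depth was read from the most frequent local background of each list, called its floor here. Merging the peaks of all libraries gave 178498 regions, of which 50575 (28.3%) were called in all 8 libraries. Across those regions the fold enrichments of replicates had Spearman correlations of 0.842 to 0.92. WT against CBP within a time gave 0.747 to 0.893 and libraries of different times 0.629 to 0.74, a description over regions of shared libraries. Of 14 satellite cell and myoblast markers, 12 had a gene-end peak in all 8 libraries, among them PAX7, MYF5, MYOD1 and DES, and ITGA7 had none. Among markers of other cells, 3 of 6 fibroblast, 2 of 5 endothelial, 3 of 5 immune and 1 of 4 adipocyte genes had one, and 0 of 3 Schwann cell genes did. PDGFRA, CDH5, CSF1R, ADIPOQ and FABP4 had none in any library.

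Open chromatin lay at the ends of nearly all ribosomal protein genes in both states of the cells. A gene-end region is a merged region within 1 kb of either end of the gene to which that end is the nearest of any gene. In the libraries at 0 h, 78 of 81 genes (96.3%) had their gene-end region called in each of the 4 lists. At 60 h the numbers were 77 and 76 in WT and 76 and 76 in CBP. In all, 76 genes (93.8%) were called in every library, 45 of 49 RPL and 31 of 32 RPS genes, against 12793 of all 19484 protein-coding genes (65.7%). The proteins of the mitochondrial ribosome, MRPL and MRPS, gave nearly the same share, 71 of 74 (95.9%), so the high share was not particular to the cytosolic ribosome. Trimming all lists to an equal number of peaks also gave 76 genes. How reads that match several places were treated is not given in the sources used here, and ribosomal protein genes have many processed pseudogenes.

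Of the other 5 genes, 1 is not reported here and the rest are given one by one. RPL10L, a retrocopy of RPL10, lies at chr1:176603177-176604116 in the Sscrofa11.1 build and had no linked region at all. The copy of RPL18 on chromosome 1, at chr1:84378453-84379052, is 600 bp long and had its nearest region 4156 bp away, while the copy on chromosome 6 was called in all libraries. RPL27A, at chr9:708531-712410, had a region called in all 8 libraries, chr9:709974-712357, inside the gene, but the nearest gene end to it is that of the neighbour TRIM66. RPS3 had its gene-end region, chr9:9629047-9630139, at folds of 3.30, 2.94, 3.02 and 3.38 in the 4 lists of 0 h, at 3.43 in WT 60 h replicate 1, and in no other. RPS3 had 2 further regions called in all 8 libraries, 4645 and 6450 bp inside the gene.

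Peak strength is given first as the fold enrichment that the authors' peak caller wrote for each peak, its column 7, taken for the strongest peak of a library in the region. At 0 h the median over the ribosomal protein genes was 5.33 and 5.00 in WT and 5.33 and 5.76 in CBP, below the medians over all protein-coding genes with a called gene-end region, 6.20, 5.94, 6.13 and 6.42. At 60 h it was 7.01 and 7.05 in WT and 7.36 and 7.58 in CBP, and the medians over all genes were 7.01, 7.04, 6.93 and 7.11. By fold, ribosomal protein genes thus lay below the typical gene end at 0 h in all 4 libraries and level with it or above it at 60 h. Ranked within each whole list, their median percentile was 60.8 to 65.4 at 0 h and 79.5 to 87.0 at 60 h, and that of all genes 72.6 to 74.1 and 79.4 to 83.6. By −log10 p, the caller's column 8, the order differed. The percentile of ribosomal protein genes was 89.3 to 90.6 at 0 h, above that of all genes (88.0 to 89.8) in every library but WT replicate 2, and 92.3 to 93.2 at 60 h (all genes 88.2 to 90.6).

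**Figure D1:**
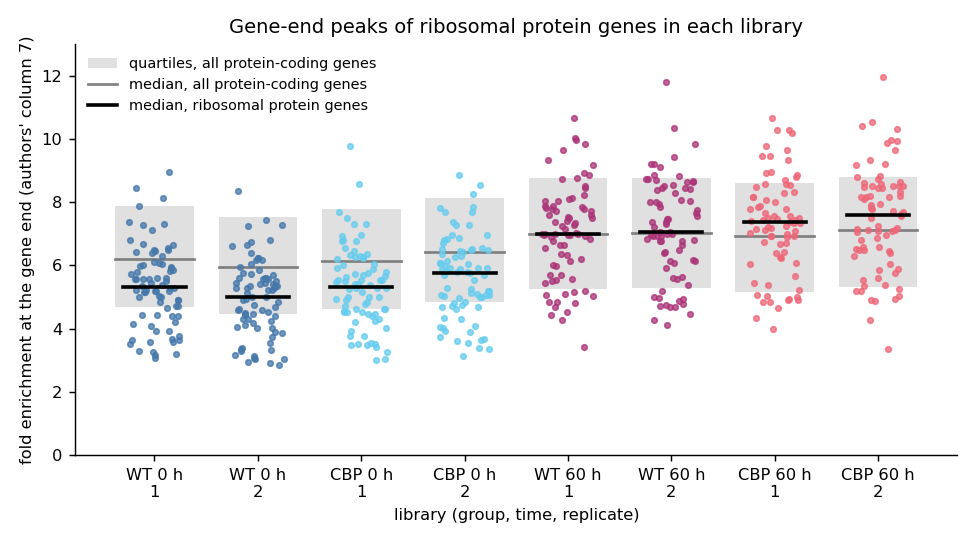
Fold enrichment (column 7, linear axis) at the gene ends of ribosomal protein genes in each of the 8 libraries; each point is a gene, black bars are their medians, grey bars and boxes the median and quartiles over all protein-coding genes. The black bars lie below the grey ones at 0 h (5.00 to 5.76 against 5.94 to 6.42) and reach 7.01 to 7.58 at 60 h.

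Ribosomal protein genes varied less among themselves than gene ends in general, as most other lists of translation genes did. The standard deviation of log2 fold over the 76 genes, each averaged over 8 libraries, was 0.315, against 0.452 over 11456 gene-end regions of protein-coding genes. It was 0.401 for mitochondrial ribosomal protein genes, 0.394 for translation factors and 0.382 for ribosome biogenesis genes. For 7 ribosomal proteins under other symbols it was 0.292. The 14 growth regulators of translation went the other way, at 0.501. RPL34 and RPL39 had the highest levels, and RPL39 is a small protein that lines the ribosome's exit tunnel. RPL34 had folds of 8.97 and 7.24 in WT 0 h, 9.76 and 8.54 in CBP 0 h, 9.83 and 11.8 in WT 60 h and 10.3 and 10.5 in CBP 60 h. RPL39 had 8.12 and 8.36, 8.58 and 8.86, 10.7 and 9.85, and 10.2 and 12.0 in the same order. In both genes every library of 60 h was above every library of 0 h. RPL21, RPS27L, RPS23 and RPS27A followed. RPS27A encodes a ribosomal protein fused to ubiquitin.

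At the low end stood RPL23A, RPL19, RPL3, RPL10, RPL10A and RPL28. RPL23A, a protein at the tunnel exit, had folds of 3.26 and 2.85 in WT 0 h, 3.47 and 3.35 in CBP 0 h, 4.27 and 4.12 in WT 60 h and 4.33 and 4.28 in CBP 60 h. RPL3, which helps form the peptidyl transferase centre, had 3.16 and 3.04, 3.25 and 3.66, 4.81 and 4.47, and 4.95 and 4.87. In RPL23A and RPL3 the times did not overlap, and the same held for RPL10, RPL10A and RPL28 but not for RPL19. The median of the genes' mean folds was 6.42 for RPS and 6.08 for RPL genes.

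Most of the peaks sat on the gene end itself. The median distance from summit to gene end was 71.2 bp, against 192 bp over all protein-coding genes, and the summit lay within 200 bp in 56 of 78 genes (71.8%), against 50.8%. Mitochondrial ribosomal protein genes gave 56 bp and 70.8%. Peaks were about as wide as elsewhere, with a median of 1181 bp against 1170 bp. In 25 genes (32.1%) the region also held the end of another gene, against 18.9% of all, so that part of the signal may belong to a neighbour. RPL17 and RPL19 had their summits farthest from the gene, at medians of 1299 and 1126 bp. The gene table has no strand, so which end is the start is not known here.

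Fold enrichment combines the number of reads at the summit, the pileup, with the caller's estimate of the reads to be expected there from its surroundings, the local background. Both were recovered for every peak from columns 7 and 8, a step added after the data had been seen, and divided by the floor of the library. Among the ribosomal protein genes, differences in level went with the background more than with the pileup. Across the 76 genes, fold had a Spearman correlation of −0.64 with background and 0.14 with pileup, against −0.33 and 0.34 over 11456 gene-end regions. The pattern was not particular to these genes: the values were −0.55 and 0.12 for mitochondrial ribosomal protein genes, −0.84 and −0.25 for translation factors and −0.72 and 0.18 for ribosome biogenesis genes. These are descriptions across genes of the same libraries, and fold is computed from both other values. RPL23A, lowest in fold, and RPL34, highest, show this in WT 0 h replicate 1: the pileup was 41.2 times the floor at RPL23A and 34.1 at RPL34, and the background 12.4 and 3.54 times the floor. RPL23A had the higher pileup and the higher background of the pair in every library.

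**Figure D2:**
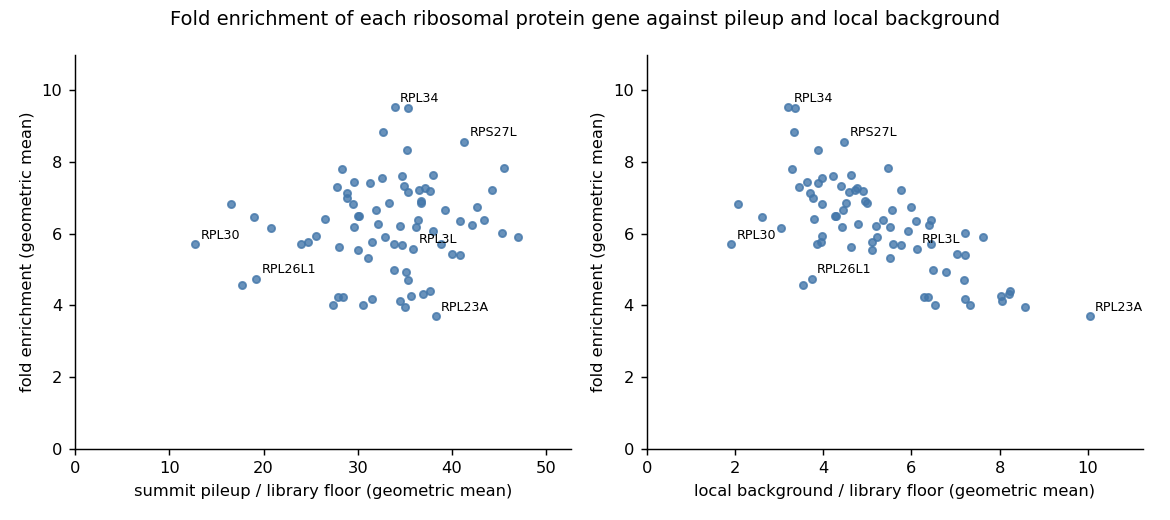
Fold enrichment of each of the 76 ribosomal protein genes called in all libraries (vertical axis) against summit pileup (left) and local background (right), both in units of the library floor; points are genes, as geometric means over 8 libraries, on linear axes. Fold falls with background (Spearman −0.64) and shows little relation to pileup (0.14).

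The main comparison was between 60 h and 0 h, differentiation against proliferation. Averaged over WT and CBP, fold enrichment rose at 73 of 76 ribosomal protein genes, and no gene passed the test downward. Under one label alone fewer passed. Differences were tested with limma on quantile-normalised log2 fold over the 50575 regions, with Benjamini-Hochberg adjustment over all of them and a threshold of 0.05. In WT, 49 of 76 genes rose (median log2 difference 0.54), where 4.26% of all regions rose and 4.94% fell, and 10.7% of the leading gene-end regions rose and 0.995% fell. In CBP, 58 rose (median 0.51). The shares in CBP were 9.07% higher and 9.28% lower of all regions, and 18.3% and 1.25% of leading gene-end regions. Averaged over both labels, 73 of 76 rose (median 0.51), against 19.3% higher and 15.5% lower of all regions and 42.8% and 2.97% of leading gene-end regions, and the median over leading gene-end regions was 0.20. A total of 43 genes rose under both labels and 12 under neither. RPS3, whose gene-end peak was missing from lists of 60 h, is not among the 76 and could not be tested.

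With 2 libraries a group, the counts under one label changed when single libraries were left out. Each such fit leaves 1 library in a group. No share over all regions is given for these fits, so whether the changes were particular to these genes is not shown. In WT, none of the 76 genes passed without either library of 0 h, 29 without WT 60 h replicate 1 and 7 without WT 60 h replicate 2. In CBP, 7 passed without CBP 0 h replicate 1, 17 without CBP 0 h replicate 2, and 37 and 36 without either library of 60 h. The averaged count stayed between 65 and 72, and no gene fell in any of these fits. Counted without a model, all 4 libraries of 60 h lay above all 4 of 0 h in 68 of 76 genes (89.5%), against 32.3% of leading gene-end regions and 13.3% of all regions. When only regions within 1 kb of gene ends entered the fit, so that each gene was set against other gene ends, 27 genes rose in WT, 28 in CBP and 54 averaged, where 3.09%, 3.33% and 11.4% of leading gene-end regions did.

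RPS26, a small subunit protein near the messenger RNA exit, had the largest averaged difference. Its folds were 5.59 and 4.50 in WT 0 h, 5.27 and 5.89 in CBP 0 h, 7.78 and 8.74 in WT 60 h and 8.86 and 10.3 in CBP 60 h. The times did not overlap, and the averaged log2 difference was 0.81 (SE 0.094, limma adjusted p = 0.000902). RPL10A had 3.09 and 3.04, 3.41 and 3.13, 5.17 and 4.87, and 5.38 and 6.05, a difference of 0.77. RPL4, a protein of the exit tunnel wall, had 4.73 and 4.11, 4.32 and 5.01, 7.59 and 6.41, and 7.26 and 8.16, a difference of 0.76. All of these libraries at 60 h were above those at 0 h. RPL36, RPS12 and RPL32 followed, at 0.74, 0.73 and 0.73. In WT alone RPL36 led with 0.81 (SE 0.15, limma adjusted p = 0.0163), followed by RPS26, RPL13, RPS19, RPL9 and RPL4. RPS19 is the gene most often mutated in Diamond-Blackfan anaemia. In CBP alone RPL24 led with 0.89 (SE 0.13, limma adjusted p = 0.00389), followed by RPS12, RPS26, RPL32, RPL10A and RPL4.

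The 3 genes that did not pass the averaged test were RPL26L1, RPL3L and RPL30. RPL26L1 and RPL3L are paralogs of RPL26 and RPL3, and RPL3L replaces RPL3 in mature striated muscle. RPL3L had folds of 5.37 and 5.43 in WT 0 h, 5.56 and 5.53 in CBP 0 h, 5.98 and 5.59 in WT 60 h and 6.06 and 5.18 in CBP 60 h. Its times overlapped through CBP 60 h replicate 2, and the averaged log2 difference was 0.15 (SE 0.097, limma adjusted p = 0.252). These values belong to the region chr3:40016539-40018380. A weaker region at the opposite end of RPL3L, chr3:40004728-40005899, was also called in all 8 libraries. Its folds were 3.05 to 3.63 at 0 h and 3.79 to 4.47 at 60 h, so the times did not overlap there. RPL3, the partner of RPL3L, rose from 3.04 to 3.66 at 0 h to 4.47 to 4.95 at 60 h. RPL26L1 had 4.22 and 3.88, 5.53 and 5.18, 5.02 and 4.26, and 4.90 and 5.26, and RPL30 had 4.92 and 5.35, 6.03 and 5.92, 5.18 and 5.58, and 7.12 and 5.84. Times overlapped in both. A stronger region linked to RPL30, chr4:38716161-38717824, lies 2596 bp from a gene end and was also called in all 8 libraries. Its folds were 7.85 to 10.3 at 0 h and 9.82 to 11.3 at 60 h, so the times overlapped there too. The RPL30 values tested belong to the region at the gene end. Set against other gene ends alone, the averaged differences of RPL26L1, RPL3L and RPL30 were −0.06, −0.07 and −0.04.

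Other members whose symbols mark a paralog or an associated protein did pass. RPL22L1, a paralog of RPL22, rose by 0.58 averaged over labels, RPL36AL by 0.50, RPS19BP1, which encodes a binding partner of RPS19, by 0.42, RPL7L1 by 0.39 and RPS27L by 0.33. Their median folds over 8 libraries ran from 4.18 at RPS19BP1 to 8.64 at RPS27L.

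**Figure D3:**
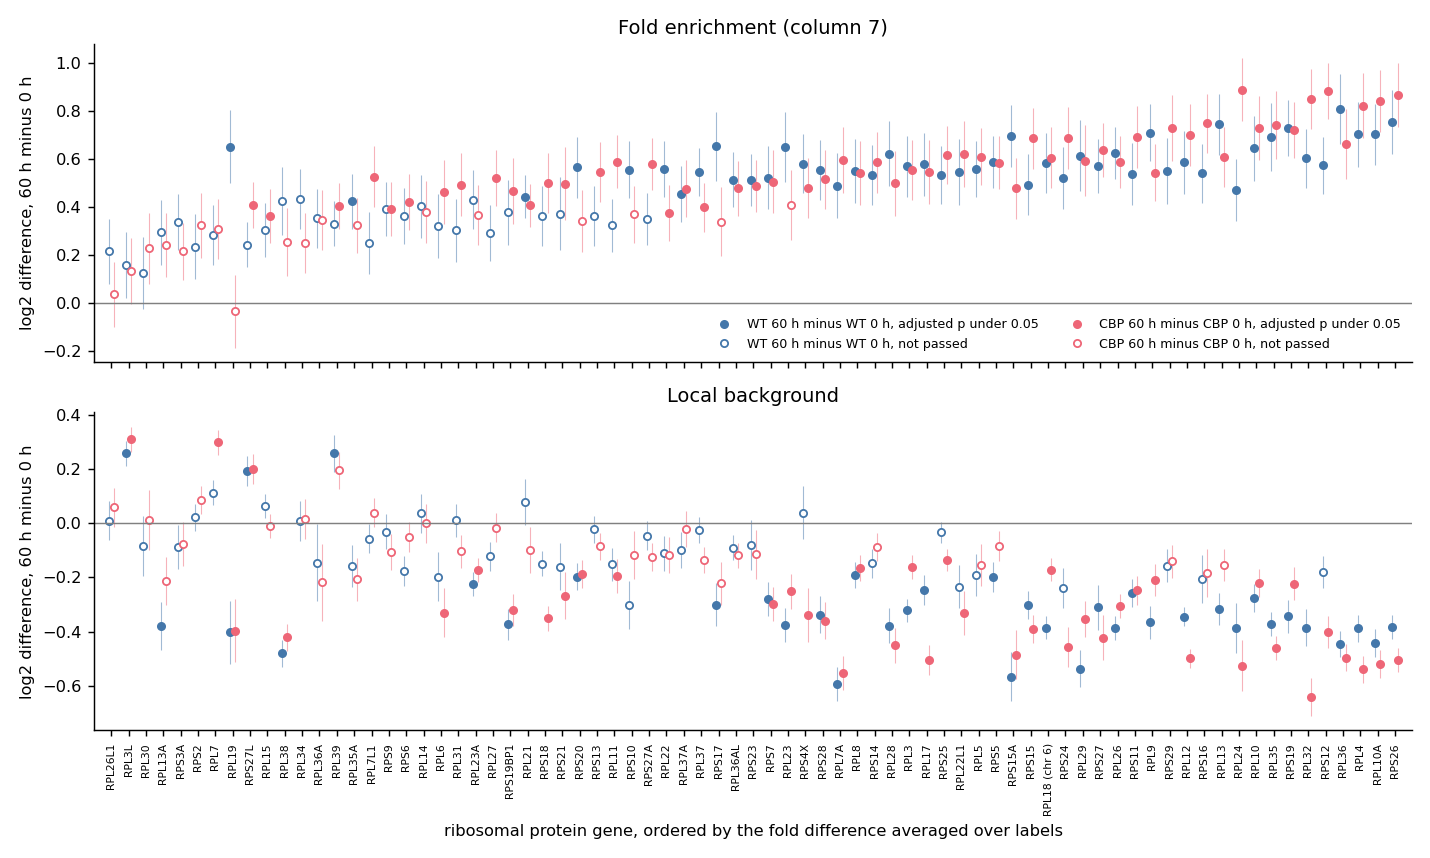
Log2 difference between 60 h and 0 h of fold enrichment (top) and local background (bottom) for all but 1 of the 76 ribosomal protein genes, in WT (blue) and CBP (red), with limma standard errors as bars; filled points passed an adjusted p of 0.05. Fold differences lie above 0 for every gene shown in WT and for all but RPL19 (−0.03) in CBP, while most background differences lie below 0.

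The rise in fold at these genes went with a lower local background. In units of the library floor, the median background was 6.08 and 5.76 in WT 0 h and 5.59 and 6.04 in CBP 0 h, then 4.75 and 4.65 in WT 60 h and 3.91 and 4.08 in CBP 60 h. Over all protein-coding genes it moved little, from 3.59 to 3.81 at 0 h to 3.30 to 3.51 at 60 h. Depth moved with it. Among the libraries of 0 h, those with relative depths of 1.43 and 1.69 had 6.04 and 6.08, and those with 1.98 and 2.08 had 5.59 and 5.76. Among those of 60 h, depths of 1 and 1.08 went with 4.65 and 4.08, and depths of 1.11 and 1.21 with 4.75 and 3.91. Depth and time cannot be told apart in these libraries. The part of depth was not tested. By limma on quantile-normalised log2 background, 36 genes fell and 3 rose in WT, where 10.1% of all regions fell and 10.7% rose, and 7.62% of leading gene-end regions fell and 14.4% rose. In CBP, 41 fell and 3 rose, against 17.1% lower and 18% higher of all regions and 7.97% and 30.8% of leading gene-end regions. Averaged over labels 51 fell and 4 rose, against 20.7% lower and 22.2% higher of all regions and 12.4% and 35.6% of leading gene-end regions. All 51 also rose in fold, as 73 of the 76 genes did. Fold is computed from the background, so this overlap is no separate result. Divided by the floor instead, 70 of 76 fell in the averaged fit, where 42% of leading gene-end regions did, and after median centring 41 fell and 5 rose, against 9.67% and 48.2%. All 4 libraries of 60 h lay below all 4 of 0 h in 64 genes (84.2%), against 30.4% of leading gene-end regions and 35.1% of all regions.

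Clear drops in background were seen at RPL7A, RPS15A and RPL32. RPL7A stood at 8.76 and 8.58, 7.90 and 7.91, 5.30 and 5.38, and 4.69 and 4.37 times the floor in WT 0 h, CBP 0 h, WT 60 h and CBP 60 h, an averaged log2 difference of −0.57 (SE 0.045, limma adjusted p = 0.000271). Its times did not overlap. RPS15A and RPL32 fell by 0.53 and 0.51 on the log2 scale. The genes whose background rose were RPL3L (0.28), RPL39 (0.23), RPL7 (0.21) and RPS27L (0.20) in the averaged fit, and no gene passed upward when the background was divided by the floor. RPL3L, at the region chr3:40016539-40018380, had the largest of these rises. It stood at 5.95 and 5.95, 5.60 and 6.10, 6.85 and 6.49, and 5.78 and 6.35 times the floor, so its times overlapped.

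Summit pileup gave no single answer. In floor units its median was 33.1, 30.0, 30.7 and 35.0 at 0 h and 37.7, 36.9, 31.6 and 35.2 at 60 h, so the times overlapped. By limma on quantile-normalised values 1 gene rose in WT, RPS4X, where 6.02% of all regions rose and 6.28% fell, and 5.97% and 1.97% of leading gene-end regions. In CBP 3 rose and 1 fell, against 12.6% and 14.6% of all regions and 13% and 3.82% of leading gene-end regions. Averaged over labels 4 rose, RPS4X, RPL10, RPL39 and RPS16, and 2 fell, RPL26 and RPL19, against 16% and 16.9% of all regions and 17.8% and 5.24% of leading gene-end regions. In floor units 12 rose and none fell, where 22.1% of leading gene-end regions rose, and after median centring 65 rose and none fell, where 67.7% of leading gene-end regions rose too. The median over all regions stood at 0.11 (log2) after median centring and at −0.13 in floor units, and the median of the ribosomal protein genes was 0.03, 0.12 and 0.36 under quantile, floor and median scaling. How many genes rose in pileup therefore depended on the scaling. In the averaged comparison 73 genes rose in fold under quantile and median scaling and 54 against gene ends alone, and 51, 41 and 70 fell in background under quantile, median and floor scaling. Under one label the background counts were lower, 36 in WT and 41 in CBP by quantile scaling and 30 and 32 after median centring, and 51 and 69 in floor units. Of leading gene-end regions, 6.82% fell in WT and 7.11% in CBP after median centring, and 21.3% and 34.7% in floor units. Of all regions, 26.6% and 43.5% fell in floor units. The part of the background in the rise of fold was not tested.

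**Figure D4:**
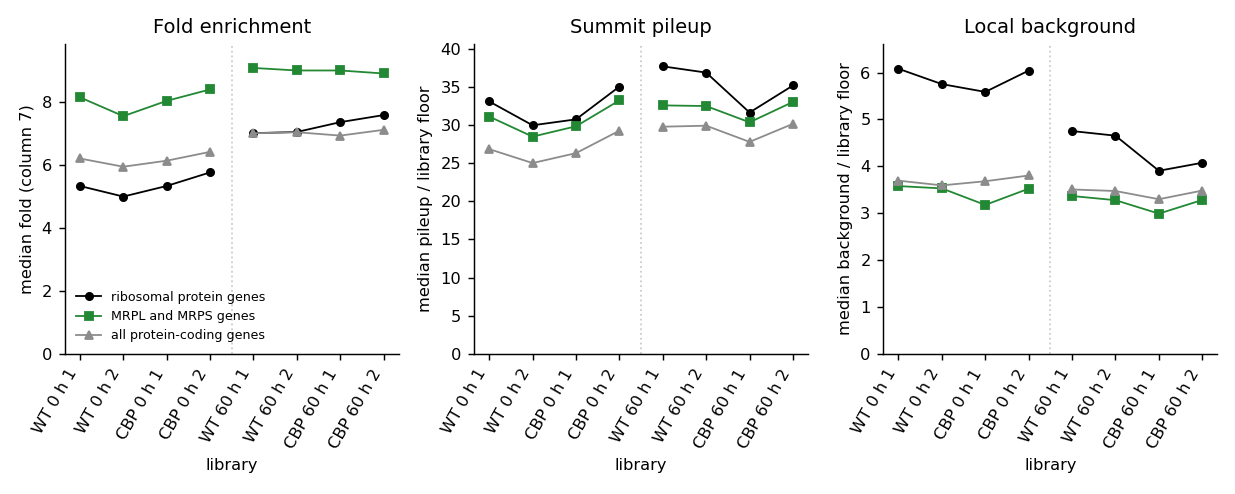
Medians by library of fold enrichment (left), summit pileup (middle) and local background (right), the last 2 in units of the library floor, for ribosomal protein genes (black), mitochondrial ribosomal protein genes (green) and all protein-coding genes (grey); axes are linear and lines join libraries of one time. The background of the black group falls from 5.59 to 6.08 at 0 h to 3.91 to 4.75 at 60 h, and its pileup overlaps between times.

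Beside the members, the surroundings held fewer peaks at 60 h. In a 10 kb window centred on the gene-end peak, ribosomal protein genes had 1.70 to 1.80 peaks on average in the 0 h lists and 1.34 to 1.45 in the 60 h lists, and all genes had 1.51 to 1.54 and 1.34 to 1.37. The median length covered by peaks went from 1536 to 1706 bp at 0 h to 1176 to 1297 bp at 60 h around ribosomal protein genes, and over all genes from 1557 to 1691 bp to 1236 to 1298 bp.

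The second question was whether CBP and WT differ. At 0 h no ribosomal protein gene differed in fold by limma (0 of 76 at an adjusted p of 0.05 and 1 at an unadjusted one, median log2 difference 0.07), and 0 of all 50575 regions passed. The largest differences there were 0.36 at RPL26L1 (SE 0.14, limma adjusted p = 0.619), 0.24 at RPS19 and 0.21 at RPS4X upward, and −0.12 at RPS16 downward. At RPL26L1 both CBP libraries of 0 h, at 5.53 and 5.18, were above both WT libraries, at 4.22 and 3.88. At 60 h 0 of 76 passed as well, with 5 at an unadjusted p under 0.05 (median 0.08), where 1.79% of all regions were higher and 2.49% lower, and 0.777% and 0.332% of leading gene-end regions. The largest difference was at RPL19, a large subunit protein that bridges the subunits. RPL19 had folds of 3.59 and 3.31 in WT 0 h, 3.52 and 4.06 in CBP 0 h, 5.11 and 5.63 in WT 60 h and 3.98 and 3.36 in CBP 60 h. At the region measured, chr12:23026783-23029127, the 2 CBP libraries of 60 h thus lay in the range of 0 h, while WT rose. The difference of CBP from WT at 60 h was −0.57 (SE 0.15, limma adjusted p = 0.0606), and it passed under 5 of 13 alternatives, for example at −0.56 (limma adjusted p = 0.0454) when lists were trimmed to equal length. The adjusted p ran from 0.00538 to 0.199 over these alternatives. The difference between the time courses was −0.68 (SE 0.22, limma adjusted p = 0.266).

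RPL19 also had a lower summit pileup in CBP at 60 h. It was 34.9 and 33.5 times the floor in WT 60 h and 17.5 and 20.1 in CBP 60 h, and 27.9 to 31.7 in the 4 libraries of 0 h. The difference of CBP from WT at 60 h was −0.60 (SE 0.11, limma adjusted p = 0.000241), the one gene among 76 to pass, where 8% of all regions were higher and 10.4% lower, and 8.32% and 2.37% of leading gene-end regions. At 0 h 0 of 76 differed in pileup, against 0.295% higher and 1.59% lower of all regions and 0.262% and 0.445% of leading gene-end regions. The region, chr12:23026783-23029127, lies 250 bp outside RPL19 and is wide enough for 2 peaks, and the strongest summits of different libraries lay up to 1168 bp apart. The value may compare different summits. A further region at the opposite end of RPL19, chr12:23033752-23034657, was also called in all 8 libraries. Its folds at 60 h were 3.96 and 3.89 in WT and 4.17 and 3.93 in CBP, so the labels overlapped there. RPL11, which binds MDM2 when ribosome assembly fails, had the largest difference upward, 0.40 (SE 0.11, limma adjusted p = 0.0656), with folds of 8.04 and 6.78 in WT 60 h and 9.47 and 9.94 in CBP 60 h.

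Local background did differ between CBP and WT at 60 h. It was lower in CBP at 16 genes and higher at 1, RPL7, by limma, where 13.7% of all regions were lower and 12.6% higher, and 5.3% and 18.5% of leading gene-end regions. In floor units 31 were lower and none higher, and 20 and none after median centring, where 9.49% and 6.92% of leading gene-end regions were lower. RPS24 led, at 7.23 and 6.77 times the floor in WT 0 h, 6.01 and 6.56 in CBP 0 h, 6.0 and 5.07 in WT 60 h and 3.79 and 3.79 in CBP 60 h, a log2 difference at 60 h of −0.41 (SE 0.074, limma adjusted p = 0.00818). RPS12 (−0.35), RPL12 (−0.34) and RPL32 (−0.33) followed. RPL12 stood at 6.79 and 6.69 in WT 60 h and 4.73 and 5.02 in CBP 60 h. In these genes both CBP libraries of 60 h were below both WT libraries. At 0 h 0 of 76 passed by limma, with 22 at an unadjusted p under 0.05. At the adjusted threshold 0.168% of all regions were higher and 0.641% lower, and 0.201% and 0.436% of leading gene-end regions. For unadjusted counts in fold, pileup or background, no share over all regions is given here, so they cannot be weighed. No gene's time course differed between labels by limma in fold, pileup or background on quantile-normalised values (0 of 76 each, with 2 at an unadjusted p under 0.05 in fold, 6 in pileup and 9 in background). In pileup 1 gene was lower by this comparison after median centring and 1 in floor units. Of all regions 0 differed in fold, 0.896% were higher and 1.5% lower in pileup, and 0.652% and 1.39% in background. Among leading gene-end regions the shares were 0.306% and 0.323% in pileup and 0.515% and 0.463% in background. Leaving out single libraries, 9 to 13 genes had a lower background in CBP at 60 h.

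**Figure D5:**
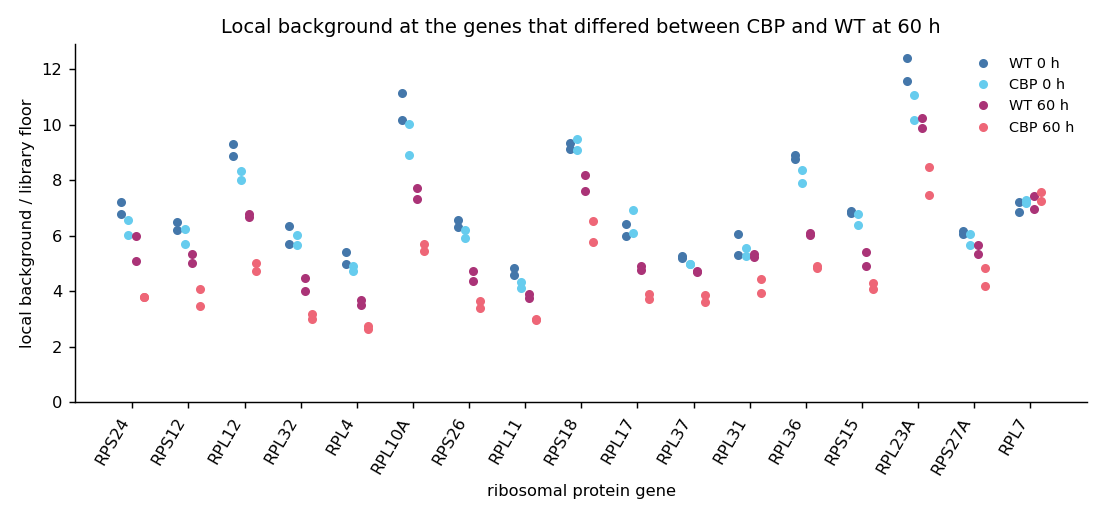
Local background in units of the library floor (linear axis) in each of the 8 libraries, for the 17 ribosomal protein genes that differed between CBP and WT at 60 h, ordered by that difference; points are libraries, coloured by group. CBP 60 h is the lowest group in 16 genes, RPS24 (3.79 in both libraries) first, and RPL7 at the right is the exception.

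Genes that make or drive the ribosome outside the naming rule were set beside these. Their lists were fixed with earlier results of these data known. Among 7 ribosomal proteins under other symbols, 5 rose in fold in each label and averaged, led by RPSA (0.96 averaged, SE 0.10, limma adjusted p = 0.000805), and FAU did not pass (0.08). RPSA also fell in background by 0.66 on the log2 scale, and RPLP0 by 0.42. The counts below stand beside the 42.8% higher and 2.97% lower of leading gene-end regions. Of 28 translation factors, 21 rose and 1 fell averaged (median 0.31). The elongation factor EEF1A1 rose by 0.65 with a background difference of 0.01, and the poly(A)-binding protein gene PABPC1 fell by 0.37. Of 36 ribosome biogenesis genes, 24 rose, among them the nucleolar proteins NOP56 (0.64) and NPM1 (0.46), and 1 fell, UBTF (−0.23), which encodes a factor for ribosomal RNA transcription. Of 14 growth regulators 5 rose, a share below that of leading gene-end regions, among them LARP1, which binds the pyrimidine-rich messages (0.58), while MYC (0.20, limma adjusted p = 0.0932) and MTOR (0.05) did not pass. Mitochondrial ribosomal protein genes rose in 31 of 71 (median 0.18), close to the 42.8% of leading gene-end regions. Their background fell in 5 and rose in 29, where that of leading gene-end regions fell in 12.4% and rose in 35.6%.

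Regions farther out behaved less evenly. Ribosomal protein genes had 271 linked regions, each within 50 kb and nearest to their ends, 107 within 1 kb and 164 beyond. Of the near ones 83.2% were called in all 8 libraries (65.8% for all genes), and of the far ones 29.3% (25.1%). The 48 far regions that could be tested had a median averaged fold difference of 0.05, with 14 higher and 6 lower, where 19.3% of all regions were higher and 15.5% lower. Calls were also compared, where a region counts as closed when called in both libraries of the first group and neither of the second, and as opened in the reverse. In WT 27 regions (9.96%) closed and 2 (0.738%) opened from 0 h to 60 h, against 14.3% and 0.575% of all linked regions. In CBP 32 (11.8%) closed and none opened, against 14.5% and 1.36%. With lists of equal length, WT had 2 closed and 9 opened and CBP 8 closed and 6 opened. The shares above are for untrimmed lists, and none over all linked regions is given at equal length. The trimmed counts therefore do not show whether the change of direction in WT was particular to these genes. Within 1 kb of gene ends, 5 regions closed in WT and 9 in CBP of 107, where 7.04% and 6.95% of all such regions did, among them small side peaks of RPL3L, RPL28 and RPS15A with folds of 1.60 to 3.20 at 0 h.

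Between the labels, 5 regions opened and 5 closed in CBP against WT at 0 h (1.85% each, against 2.23% and 3.35% of all linked regions), and 1 opened and 8 closed at 60 h (0.369% and 2.95%, against 3.14% and 3.17%). At 60 h none was within 1 kb of a gene end. At both times the opened regions included chr1:267983771-267984467, which lies 18890 bp from RPL12 and was the one region opened at 60 h. It was called at folds of 4.34 and 4.54 in CBP 0 h and 6.90 and 3.77 in CBP 60 h, and in no WT library. Closed regions of CBP at 60 h included chr13:157413420-157413955, 1487 bp from RPL24, and chr14:39298859-39299776, 2671 bp from RPL6, each called in the other 6 libraries.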

How the data were processed

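Peaks were called per library with MACS2 2.1.0 on Sscrofa11.1 after Trimmomatic, per the submitters' processing notes. For the aligner, any control library and the handling of duplicates, these sources give nothing. The deposited lists were read as narrowPeak, with column 5 a score, column 7 a fold ratio and columns 8 and 9 −log10 p and −log10 q, all made by the authors. Column 7 was compared between libraries after quantile normalisation. Peaks were merged at 1 bp overlap and linked to the nearest end of a RefSeq protein-coding gene within 50 kb. A gene's lead region was the one within 1 kb called in most libraries, then of highest fold. Pileup and background came from fold = (pileup + 1)/(background + 1) and a Poisson p. Only whole-number pileups were tried, and they gave the deposited −log10 p to within 0.01 in 100% of peaks. Relative depth was read from the backgrounds recovered with them. Python 3.11.15 and limma 3.58.1 (R 4.3.3) were used, with 4 group means over 8 libraries, and the limma step was tested on simulated data. Genes named were those with exceptional calls, the largest differences, the highest and lowest levels, and paralogs, and those chosen by background and pileup were added after their values were seen. Members and lists were chosen with earlier results of these data known. Replicate numbers did not pair libraries (correlations of deviations −0.017 to 0.022). Some results on single genes are not reported here.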

Additional observations from a re-analysis of the deposited data

How the results depend on the processing

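Of 440 alternative values of counts and medians, 326 stayed within the spread or within 1.5 times. For fold, columns 8 and 9 in place of column 7 gave 24 and 24 genes higher in WT (medians 0.42 and 0.44), 29 and 28 in CBP (0.43 and 0.45), averaged medians of 0.39 and 0.41, and, for CBP against WT at 60 h, 1 gene lower in each (0.0284 and 0.0287). Gene-end regions alone gave 27 (0.34) and 28 (0.32) higher, an averaged median of 0.31 and a CBP difference at 60 h of 0.0506. A −log10 q of at least 5 gave medians of 0.47, 0.46 and 0.45 and 1 gene lower in CBP at 60 h, as did the same number of peaks. Leaving out single libraries gave 0 to 29 higher in WT (median 0.48 to 0.55), 7 to 37 in CBP, medians of 0.0349 to 0.0932 and 0.0451 to 0.0971 for CBP at 0 h and 60 h with 0 to 1 lower at 60 h, and −0.0082 to 0.0639 for the difference of time courses. The cause of these changes was not tested, apart from fewer samples when a library is left out.

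Reversed single genes were, with gene-end regions alone, RPL30 (−0.0699 in WT, −0.035 averaged), RPL3L (−0.0427 in WT, −0.0885 in CBP, −0.0656 averaged) and RPL26L1 (−0.173 in CBP, −0.0551 averaged). In CBP RPL26L1 turned to −0.0436 at the stricter q and from −0.0214 without CBP 0 h replicate 2 to 0.0958 without replicate 1, RPL3L ran from −0.0128 without CBP 60 h replicate 1 to 0.287 without replicate 2, and RPL19 was 0.0755 after median centring and −0.212 without CBP 60 h replicate 1, 0.0431 without CBP 0 h replicate 2 and 0.144 without CBP 60 h replicate 2.

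Pileup, in floor units, gave 5 higher in WT, 0 higher and 2 lower in CBP and 3 lower for CBP at 60 h, and after median centring 50 and 52 higher. Of leading gene-end regions, floor units gave 13.3% higher in WT, 3.77% higher and 7.11% lower in CBP, and 4.11% lower for CBP at 60 h. Median centring gave 45.5% of them higher in WT and 63.4% in CBP. Without single libraries it gave 0 to 1 higher and 0 to 1 lower in WT, and 0 to 3 higher and 1 to 2 lower in CBP. Background, in floor units, gave 0 higher in either label, 69 lower in CBP, and 0 higher and 31 lower for CBP at 60 h, where median centring gave 0 higher. Of leading gene-end regions, floor units gave 2.56% higher in WT, and 1.95% higher and 34.7% lower in CBP. For CBP at 60 h the shares were 6.77% higher and 9.49% lower, and 18% higher after median centring. Without single libraries it gave 14 to 26 lower and 0 to 1 higher in WT, 24 to 32 lower in CBP, and 9 to 13 lower and 0 to 1 higher for CBP at 60 h. Pileup and background were measures chosen after seeing the data. With a replicate block, 44, 55 and 70 genes were higher in fold in WT, CBP and averaged, and 1 was higher in background in WT. It moved no other count by over 1.5 times.

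Opened and closed calls moved most, and the counts below have no share over all linked regions beside them. The same number of peaks gave 9 opened and 2 closed in WT, 6 and 8 in CBP, and 0 opened for CBP at 0 h. Links within 10 kb gave 0 opened and 17 closed in WT, 3 closed for CBP at 0 h, and 0 opened and 3 closed at 60 h. Coverage of 50% of the region gave 8 opened and 8 closed for CBP at 0 h and 4 opened at 60 h, and the stricter q gave 2 opened at 60 h. Without single libraries WT had 4 to 4 opened and 37 to 45 closed, CBP 0 to 4 and 39 to 62, CBP against WT 8 to 17 and 7 to 20 at 0 h and 3 to 6 and 13 to 18 at 60 h. The alternative with the annotated start alone was not run, since the gene table has no strand. Lists of 60 h were shallower, and the part of depth in their missing calls was not tested.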
